A study of Oryza sativa with 14 samples.

Results

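Shoots of 2 rice mutants, mhz5 and mhz4, were set side by side to find which genes tell them apart. The mhz5 group held 1 array from shoots kept in 10 ppm ethylene for 8 h at 28 °C and 1 from shoots in air, and the mhz4 group held the same 2 gases, so 4 of the 14 arrays of the series entered the comparison and no wild-type (WT) array did. All 4 arrays came from etiolated seedlings germinated in darkness for 2 days at 37 °C, and ethylene was given to seedlings 3 days old. The arrays were chosen by genotype, tissue and gas as their titles give them. Every array is labelled as the first biological replicate, and the labels give neither the alleles, the parent line nor the number of seedlings pooled. For air they state no seedling age, duration, temperature or water depth of its own.

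MHZ5 encodes a carotenoid isomerase, which turns the poly-cis carotenoid prolycopene into all-trans lycopene in plastids. MHZ4 encodes a chloroplast membrane protein that acts further along the same route, in the xanthophyll steps that lead to abscisic acid (ABA). Carotenoids feed ABA, strigolactones and the photosynthetic pigment complexes, and both mutants were isolated for altered ethylene responses of dark-grown seedlings, so a comparison between them sets an early block against a late block of 1 pathway.

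Of 57258 probe sets, 20305 reached a signal of 50 on at least 2 of the 4 arrays and were tested. Signals are the deposited linear intensities, and differences are mhz5 minus mhz4 of log2(signal + 8). The added 8 makes changes of dim probe sets look smaller. The limma fit had a gas term, so both gases of a genotype stood in as its replicates. Each difference is a mean of 2 within-gas differences (n = 2 arrays per genotype), given with its moderated standard error. Adjusted p-values are limma's with Benjamini-Hochberg adjustment over all tested probe sets, with a threshold of 0.05. With 1 array per genotype and gas, they set the mean difference against a spread drawn from 2 sources. One is the gap between both within-gas differences (1 residual degree of freedom). The other is a trend pooled over all tested probe sets (5.08 prior degrees of freedom). Neither measures the spread between seedlings grown separately.

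In all, 406 probe sets passed, 200 higher and 206 lower in mhz5 (2.0% of those tested in either direction, 0.985% higher and 1.01% lower). At the level of genes, each represented by its brightest probe set, 109 of 13415 were higher (0.813%) and 122 were lower (0.909%), 1.72% in all. Both within-gas differences had the same sign for all 406, and for 13854 of the 20305 probe sets tested. The gap between both differences enters the spread of the test, so probe sets with opposite signs could hardly pass. The shared sign of the 406 is therefore no separate evidence. At least a 2-fold difference in the same direction in both gases was found for 94 probe sets higher (0.463%) and 50 lower (0.246%). Spearman correlations between the 4 arrays were 0.958 to 0.980, with a median difference of 0.03 over the tested probe sets. Within ethylene 176 probe sets were at least 2-fold higher and 189 at least 2-fold lower, and within air 143 and 79. The count of passing probe sets depended on single arrays when each was left out in turn. Those fits used the remaining 13 arrays and left 1 shoot array for a mutant. Their shoot gas term was shared with WT, so the WT gas response entered the difference as well as the spread. This holds for every fit below that leaves out an array.

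**Figure D1:**
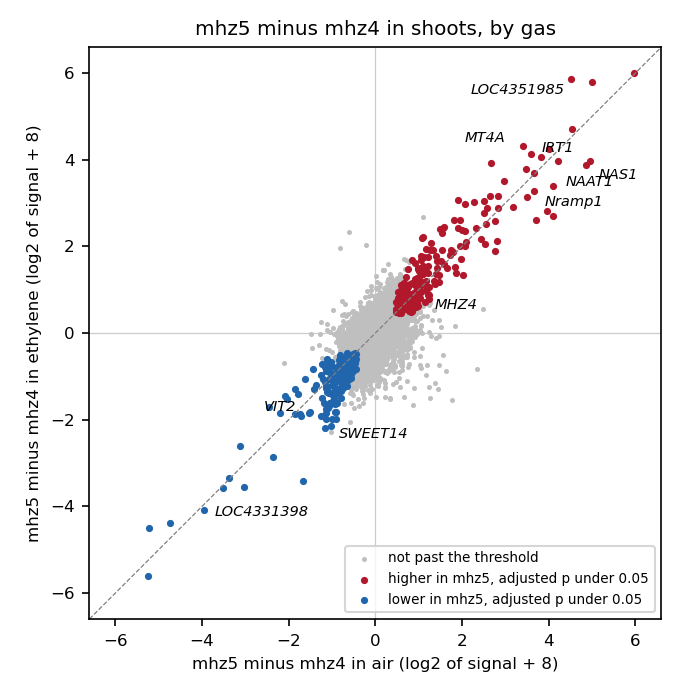
Each point is a probe set, with its mhz5 minus mhz4 difference in air on the x axis and in ethylene on the y axis, both on the log2(signal + 8) scale. The 200 probe sets called higher (red) and the 206 called lower (blue) lie near the dashed line of equal differences, with the iron genes at the upper right and LOC4331398 at the lower left.

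The mutated gene was checked first. MHZ4 had signals of 121 in air and 129 in ethylene in mhz5 shoots, against 49.2 and 60.6 in mhz4 shoots, so both mhz5 arrays lay above both mhz4 arrays. The difference was 1.08 ± 0.122 (adjusted p = 0.0131). WT shoots read 163 in air and 134 in ethylene. Without the mhz5 ethylene array the adjusted p of MHZ4 was 0.167. In bulk tissue, fewer cells of a type and less RNA per cell cannot be told apart. The labels do not describe the mutation, so this level is only a partial check of them. No probe set was named for MHZ5 in the annotation used, and its transcript was not analysed here.

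The largest group of differences lay in iron acquisition. Grasses take up iron partly by secreting phytosiderophores, chelators of the mugineic acid family made from S-adenosylmethionine through nicotianamine, and by importing the ferric complex. Rice also takes up ferrous iron directly. Of 19 tested genes of this list, 9 were higher in mhz5 and 0 lower, against 0.813% and 0.909% of all genes. The 9 include YSL15, which reached the signal filter through the mhz5 arrays alone. The median of the list was 0.28, against 0.04 over all tested genes, and the values divided into 9 higher genes and 10 between -0.40 and 0.28.

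NAS1 and NAS2 encode nicotianamine synthases, the branch point from S-adenosylmethionine to metal chelators. NAS1 had signals of 6884 in air and 9181 in ethylene in mhz5, against 214 and 575 in mhz4. NAS2 had 4965 and 6695 in mhz5, against 162 and 451 in mhz4. The difference was 4.47 ± 0.214 for NAS1 (22.1-fold, adjusted p = 0.000524) and 4.37 ± 0.219 for NAS2 (20.6-fold, adjusted p = 0.000657). All mhz5 signals of both genes were at least several times the highest mhz4 signal. NAS1 and NAS2 are adjacent in the gene table and close in sequence, so their probe sets may share transcripts. NAAT1, the aminotransferase that takes nicotianamine on towards deoxymugineic acid, had 3011 and 4505 in mhz5, against 167 and 418 in mhz4 (3.76 ± 0.165, adjusted p = 0.00038).

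The uptake side moved the same way. IRT1, a ferrous iron transporter, had 601 in air and 1013 in ethylene in mhz5, against 42.3 and 50.1 in mhz4 (3.87 ± 0.148, adjusted p = 0.000227). Its near neighbour IRT2 had 110 and 248 in mhz5, against 9.43 and 61.2 in mhz4 (2.32 ± 0.215, adjusted p = 0.00693). YSL15, the transporter of the iron-phytosiderophore complex, had 190 and 374 in mhz5, against 39.6 and 40.2 in mhz4 (2.52 ± 0.218). It reached the signal filter through the mhz5 arrays alone, so no test is given for it. In each of these 3 transporters both mhz5 signals were above both mhz4 signals, as in 28.4% of the 13415 genes tested. YSL9, a transporter of the same family named here after its value was seen, was higher by 1.12 (adjusted p = 0.0459).

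IRO3, a basic helix-loop-helix factor of the iron response, had 1042 in air and 1352 in ethylene in mhz5, against 340 and 442 in mhz4. Its difference of 1.59 ± 0.0857 was alike in air (1.59) and in ethylene (1.60), with an adjusted p of 0.000802. The gene table also lists OsIRO2, another factor of this response, as a synonym of this gene, so which of both the probe set reads is not settled here. The remaining 10 tested genes of the list did not pass, with differences from -0.40 to 0.28. They hold NAS3, which is regulated apart from NAS1 and NAS2 (1151 and 1065 in mhz5, against 1572 and 1360 in mhz4, adjusted p = 0.0833), the upstream factor IDEF1 (0.28, adjusted p = 0.286), and tom1, the exporter of deoxymugineic acid (0.01, adjusted p = 0.95). Among the other oligopeptide-type metal transporters YSL5, YSL6, YSL12, YSL13, YSL14 and YSL16 lay between -0.21 and 0.18.

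**Figure D2:**
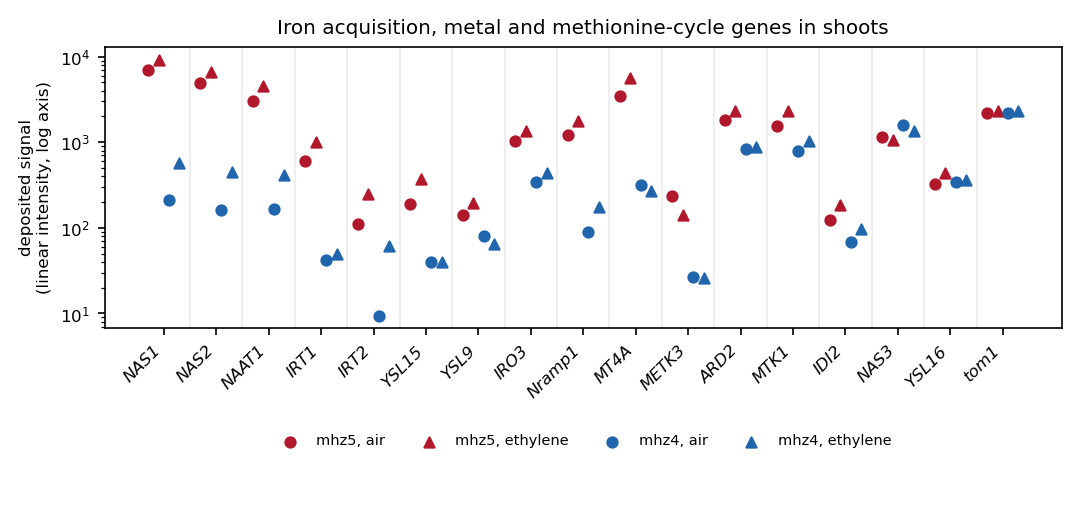
Deposited signal (log axis) of 17 genes on each of the 4 shoot arrays, mhz5 in red left of mhz4 in blue, circles for air and triangles for ethylene. NAS1, NAS2, NAAT1, IRT1, YSL15, Nramp1, MT4A and METK3 show mhz5 signals well above mhz4, whereas NAS3, YSL16 and tom1 did not pass the threshold.

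Genes of metal handling outside that list also differed. Nramp1, a divalent metal transporter that carries iron and cadmium, had 1218 in air and 1766 in ethylene in mhz5, against 88.5 and 176 in mhz4 (3.47 ± 0.121, adjusted p = 0.000173). MT4A, a metallothionein that the gene table also calls OsIDS1, had 3461 and 5574 in mhz5, against 321 and 271 in mhz4 (3.86 ± 0.204, adjusted p = 0.000748). The opposite direction was seen for VIT2, a vacuolar iron transporter, with 59.0 and 32.6 in mhz5, against 211 and 144 in mhz4 (-1.81 ± 0.121, adjusted p = 0.00212). No signal of VIT2 in mhz5 reached those of mhz4. Among the 27 tested zinc, copper and metallothionein genes, the 2 named above were higher and 2 were lower, beside 0.813% and 0.909% of all genes. The lower ones were the metallothionein MT2A (-0.92, adjusted p = 0.0111) and the copper transporter COPT1 (-0.66, adjusted p = 0.0244). The median of that list was -0.05, and a second probe set of MT2A gave -0.71 with an adjusted p of 0.0542.

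Nicotianamine synthesis consumes S-adenosylmethionine and releases methylthioadenosine, which the methionine cycle recovers. That cycle was added as a list after values had been seen. Of its 9 tested genes 5 were higher and 0 lower, beside 0.813% and 0.909% of all genes, but with no gas term 0 passed, and without any 1 of the 4 arrays 3 did. METK3, named as an S-adenosylmethionine synthetase, had 237 in air and 139 in ethylene in mhz5, against 26.8 and 26.0 in mhz4 (2.47 ± 0.185). It is counted in the 5 but reached the signal filter through the mhz5 arrays alone, so no test is given for it. ARD2, an acireductone dioxygenase, had 1803 and 2287 in mhz5, against 836 and 889 in mhz4 (1.23 ± 0.0961, adjusted p = 0.00378). The gene table merges synonyms of a heat shock factor into the ARD2 entry. MTK1, the methylthioribose kinase, had 1554 and 2301 in mhz5, against 798 and 1039 in mhz4 (1.05 ± 0.0897, adjusted p = 0.00552). The isomerase IDI2 (0.83, adjusted p = 0.0244) and the synthetase SAMS2 (0.49, adjusted p = 0.044) were also higher, whereas the synthetase SAMS read -0.01 (adjusted p = 0.953).

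These iron genes are used as root markers as well. Of the 5 tested root markers 4 were counted higher, NAS1, NAS2, IRT1 and YSL15, beside 0.813% of all genes. YSL15 reached the signal filter through the mhz5 arrays alone. The fifth, NAR2.2 of nitrate uptake, had 99.8 and 121 in mhz5, against 183 and 171 in mhz4 (adjusted p = 0.0748). The level of root transcripts in general was read from 31 probe sets taken from the WT arrays alone, with at least 500 in both WT roots and less than 20 in both WT shoots, a set defined after values were seen. Their median signal was 9.14 in air and 9.79 in ethylene in mhz5 shoots, against 8.76 and 8.93 in mhz4 shoots, and 848 to 989 in the roots of both mutants. Of the 31, 27 and 25 lay under 20 in mhz5 shoots and 26 and 29 in mhz4 shoots. Their summed signal was 741 and 1135 in mhz5, against 498 and 315 in mhz4, and 1 member, LOC4349704, made up most of the mhz5 excess: without it the sums were 363 and 362, against 489 and 310.

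The number of iron genes that passed depended on the arrays. It was 8 of 19 in a fit of all 14 arrays, 6 without the mhz5 air array, 5 without the mhz5 ethylene array, 4 without the mhz4 air array and 1 without the mhz4 ethylene array, with 0 lower in each of these fits. As background in the same tissue, WT shoots read 116 in air and 1450 in ethylene for NAS1, and 28.0 and 54.7 for IRT1. Both mhz5 signals of NAS1 and of IRT1 were above both WT signals, and this was not tested because no WT array entered the fit.

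Few genes of the pathway in which both mutants are blocked passed. Of 13 tested genes of the carotenoid pathway, 1 was higher, MHZ4 itself, and 0 were lower, beside 0.813% and 0.909% of all genes. The median was -0.12, against 0.04 over all tested genes, with 2 values positive and 11 negative. Without the mhz5 ethylene array 7 were positive and 6 negative, with a median of 0.03, in a fit that the WT gas response enters. The phytoene synthases, which commit carbon to carotenoids, read -0.12 for PSY1 (adjusted p = 0.494), -0.32 for PSY2 (0.144) and 0.06 for PSY3 (0.815). The desaturase PDS1 read -0.12 and the epoxidase ZEP -0.25. Genes of the plastidial isoprenoid route that feeds the pathway (CLA1, a DXPS paralogue, DXR, CMEK, ISPF, ISPG and ISPH) lay between -0.43 and -0.02, and none passed.

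The 7 tested genes of ABA synthesis and catabolism held 1 that was higher, again MHZ4, beside 0.813% of all genes. The ABA 8'-hydroxylases that degrade ABA read 0.47 for ABA8OX1 (adjusted p = 0.319) and 0.43 for ABA8OX2 (adjusted p = 0.208), the aldehyde oxidases AO-2 and AO-4 -0.15 and -0.30, and the cofactor sulfurase MCSU3 0.13. The 4 tested genes of carotenoid cleavage and strigolactone, CCD7, D14, D53-L and SMAX1L, lay between -0.16 and 0.32 and none passed. Leaving PM19L aside, none of the 18 genes of ABA perception and response was called, beside 0.813% higher and 0.909% lower over all genes. PM19L is a membrane protein of the AWPM-19 family. PM19L had 55.6 in air and 118 in ethylene in mhz5, against 8.98 and 7.03 in mhz4 (2.48 ± 0.274). It reached the signal filter through the mhz5 arrays alone, so no test is given for it. Receptors, phosphatases, kinases and bZIP factors of that list lay between -0.51 and 0.45. Of the 3 tested dehydrin and other late embryogenesis genes none passed.

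Ethylene genes did not pass either. The 8 tested genes of perception and signalling, among them the receptors ERS1 (0.17), ETR2 (-0.17) and the central signal transducer EIN2 (-0.12), had a median of -0.02. The 3 tested genes of ethylene synthesis had a median of 0.29 and lay between 0.16 and 0.47. A value that misses the threshold does not show that the mutants were alike in these genes.

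**Figure D3:**
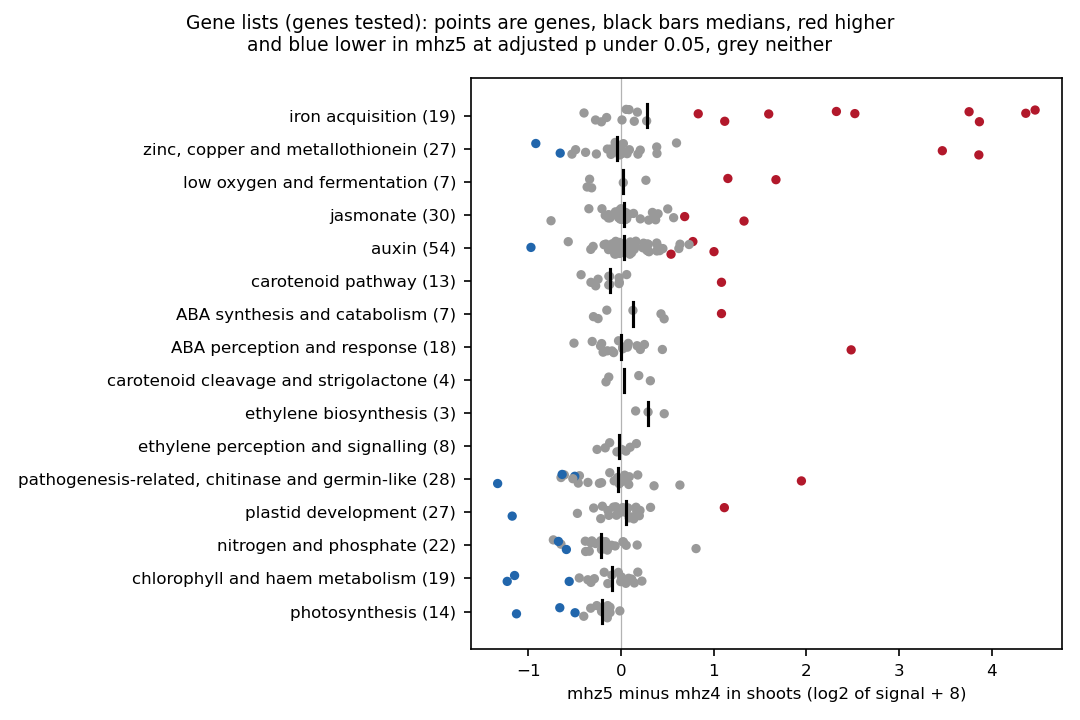
Each point is a tested gene of a list, placed by its mhz5 minus mhz4 difference on the log2(signal + 8) scale, with the black bar at the median and the number of tested genes in brackets. Iron acquisition has 9 genes higher (red), photosynthesis and chlorophyll genes have 3 lower each (blue), and the carotenoid, ABA and ethylene lists lie near 0 apart from MHZ4 and PM19L.

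Photosynthesis and chlorophyll genes formed the largest group on the lower side. In dark-grown shoots plastids are etioplasts, which hold carotenoids and a chlorophyll precursor bound to protochlorophyllide oxidoreductase, and the transcripts of photosynthetic proteins stay below those of green leaves. All 14 tested photosynthesis genes had negative differences, with a median of -0.20, and 3 passed, all lower in mhz5 (percent called lower over all genes 0.909%). The shift was the same in sign for all 14 after quantile normalization and after centring. Without the mhz5 ethylene array 6 were positive and 8 negative, with a median of -0.04, but the WT gas response enters that fit. Within air alone the differences lay between -0.88 (RCABP89) and 0.12 (LFNR1). The 6 tested shoot markers, which share members with these lists, moved the same way as the photosynthesis list: all were negative and 2 passed. Their summed signal was 29095 and 21587 in mhz5, against 32421 and 27919 in mhz4. Their part in the result was not tested.

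RCABP89, a light-harvesting chlorophyll protein, had 1243 in air and 615 in ethylene in mhz5, against 2290 and 1610 in mhz4 (-1.13 ± 0.13, adjusted p = 0.0145). petC, the Rieske protein of the cytochrome complex, had 2960 and 1966 in mhz5, against 4137 and 3519 in mhz4 (-0.66 ± 0.106, adjusted p = 0.0432). PSAH, a subunit of photosystem I, had 3233 and 2311 in mhz5, against 4576 and 3249 in mhz4 (-0.50 ± 0.0771, adjusted p = 0.0398). For these 3 genes both mhz5 signals lay below both mhz4 signals, as in 14.6% of all tested genes, and the ethylene arrays were the lower ones within each mutant. As background, WT shoots in air and ethylene read 431 and 463 for RCABP89, 1703 and 2189 for petC and 1466 and 1893 for PSAH. These lay below both mhz4 signals, and for RCABP89 and PSAH below both mhz5 signals too, which was not tested. RBCS, the small subunit of Rubisco, read -0.15 (adjusted p = 0.461) and the light-harvesting gene CAB2R -0.21 (adjusted p = 0.198).

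Of 19 tested genes of chlorophyll and haem metabolism, 3 were lower and 0 higher, beside 0.909% and 0.813% of all genes, with a median of -0.10. GluTR, glutamyl-tRNA reductase, the first committed enzyme of tetrapyrrole synthesis, had 614 and 298 in mhz5, against 1196 and 859 in mhz4 (-1.23 ± 0.141, adjusted p = 0.0143). NYC1, a chlorophyll b reductase that acts in chlorophyll breakdown, had 142 and 74.7 in mhz5, against 253 and 225 in mhz4 (-1.15 ± 0.176, adjusted p = 0.0383). PORB, a protochlorophyllide oxidoreductase, had 1167 and 686 in mhz5, against 1652 and 1057 in mhz4 (-0.56 ± 0.0858, adjusted p = 0.0386). The other 16 genes did not pass, and over the whole list 7 values were positive and 12 negative. The ranges of PORB overlapped between the genotypes, and its difference is seen within each gas. WT shoots read 495 in air and 625 in ethylene for PORB. Without the mhz5 ethylene array the list held 12 positive and 7 negative values and 0 that passed.

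GLK1, a transcription factor that activates nuclear genes of photosynthesis, had 322 in air and 166 in ethylene in mhz5, against 644 and 439 in mhz4 (-1.17 ± 0.121, adjusted p = 0.0102). Its paralogue GLK2 read -0.14 (adjusted p = 0.405). As background, WT shoots read 194 in air and 180 in ethylene for GLK1. CRSH2, a calcium-regulated plastid enzyme of the guanosine tetraphosphate alarmone, went the other way with 1686 and 689 in mhz5, against 856 and 283 in mhz4 (1.12 ± 0.103, adjusted p = 0.00694). The remaining 25 of the 27 tested plastid development genes did not pass, and the median of the list was 0.05. In the 14-array fit GLK1, GluTR and RCABP89 passed (adjusted p of 0.0171, 0.0405 and 0.0428), and NYC1, PORB, petC, PSAH and CRSH2 did not (0.0817 to 0.408). These calls were not kept when either ethylene array or the mhz4 air array was left out. The photosynthesis median was -0.04 without the mhz5 ethylene array, -0.26 without the mhz4 ethylene array and -0.17 without the mhz4 air array. The chlorophyll and haem median was 0.09, -0.16 and -0.01 in the same order.

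**Figure D4:**
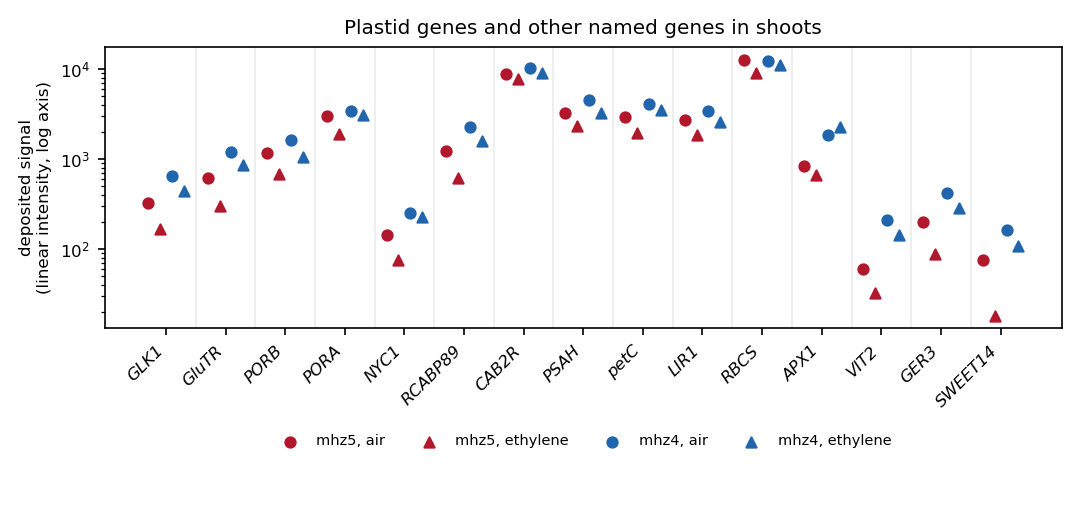
Deposited signal (log axis) of 15 genes on each of the 4 shoot arrays, mhz5 in red left of mhz4 in blue, circles for air and triangles for ethylene. GLK1, GluTR, RCABP89, APX1 and VIT2 have both mhz5 signals below both mhz4 signals, and PORB and RBCS overlap between the genotypes.

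Other genes were lower in mhz5 outside these groups. APX1, a cytosolic ascorbate peroxidase that removes hydrogen peroxide with a haem cofactor, had 840 in air and 670 in ethylene in mhz5, against 1867 and 2291 in mhz4 (-1.45 ± 0.149, adjusted p = 0.0102). Its signal was below both mhz4 arrays in both gases, and it passed without each array in turn (highest adjusted p 0.00558). GER3, a germin-like protein, had 200 and 87.0 in mhz5, against 420 and 284 in mhz4 (-1.33 ± 0.153, adjusted p = 0.0145). SWEET14, a sugar exporter, had 74.4 and 18.1 in mhz5, against 161 and 106 in mhz4 (-1.58 ± 0.253, adjusted p = 0.0425), and its second probe set read -1.66 and did not pass. WT shoots read 21.1 in air and 13.2 in ethylene for SWEET14.

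Of 28 pathogenesis-related, chitinase and germin-like genes, 3 were lower (GER3, the PR10 protein PBZ1 and OC-VIII) and 1 was higher, beside 0.909% lower and 0.813% higher over all genes. The higher one was the chitinase Cht9, with 160 and 275 in mhz5, against 51.4 and 45.8 in mhz4 (1.95 ± 0.213, adjusted p = 0.0123). In the 14-array fit GER3 and OC-VIII passed (adjusted p of 0.00565 and 0.0411), and PBZ1 and Cht9 did not (0.746 and 0.0911). SPX1 and SPX2, phosphate-sensing inhibitors of the phosphate starvation response, were the only genes to pass among 22 of nitrogen and phosphate. SPX1 had 658 and 781 in mhz5, against 1007 and 1163 in mhz4 (-0.59, adjusted p = 0.0298), and SPX2 had 242 and 328, against 398 and 520 (-0.67, adjusted p = 0.0261). The list median was -0.21, with 17 of 22 values negative.

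Among hormone genes other than those of ABA and ethylene, few passed, again beside 0.813% higher and 0.909% lower over all genes. Of 54 auxin genes 3 were higher, the amido synthetase GH3.4 (134 and 218 in mhz5, against 78.8 and 83.5 in mhz4, adjusted p = 0.0442), the auxin-oxidising dioxygenase DAO (0.78, adjusted p = 0.0234) and the response factor ARF8 (0.54, adjusted p = 0.0442). SAUR39, a small auxin-up RNA gene, was lower, with 105 and 109 in mhz5, against 217 and 218 in mhz4 (-0.97 ± 0.105, adjusted p = 0.0116). WT shoots read 32.8 in air and 26.8 in ethylene for SAUR39. The list median was 0.03. Of 30 jasmonate genes the neighbouring repressor genes TIFY11A (1.33) and TIFY11C (0.69, adjusted p = 0.0236) were higher and 0 were lower. TIFY11A reached the signal filter through the mhz5 arrays alone, so no test is given for it. None of the other named auxin and jasmonate genes passed in the 14-array fit (adjusted p of 0.0629 to 0.178). Of the 23 cytokinin, 11 gibberellin and 15 brassinosteroid genes none passed.

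The non-symbiotic haemoglobins, which scavenge nitric oxide when oxygen is low, were the 2 of 7 low-oxygen genes that passed. NSHB2 had 241 in air and 1499 in ethylene in mhz5, against 53.6 and 592 in mhz4 (1.67 ± 0.168, adjusted p = 0.00932). NSHB1 had 119 and 592 in mhz5, against 50.6 and 256 in mhz4 (1.15 ± 0.103, adjusted p = 0.00612). Both were brighter in ethylene than in air in each mutant, so the genotypes overlap and the difference is within gas. Other probe sets of NSHB1 read 0.19 and 0.24 and did not pass, and neither gene passed in the 14-array fit (0.261 and 0.306). BURP16, a BURP-domain protein of the cell wall list, was the 1 of 70 cell wall genes that passed, and it was lower (-1.12, adjusted p = 0.00606). With 1.72% of all genes passing in either direction, that count is near the background. No expansin (16 tested), histone or cell cycle gene (58), ribosomal protein (25), aquaporin (18) or heat shock gene (29) passed.

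Responses that differed between the gases were read as values only, since 1 array per genotype and gas leaves no spread for a test. The largest gaps among named genes were in LOX1.1, a lipoxygenase, with a difference of -0.81 in air and 1.95 in ethylene, and in KSL4, a diterpene synthase of phytoalexin formation, with 0.89 in air and -1.28 in ethylene. KSL4 had 262 in air and 153 in ethylene in mhz5, against 138 and 383 in mhz4. Its relative KSL7 (0.74 and -1.11), the P450 gene CYP99A2 of the same route (0.21 and -1.47) and the cold-response factor DREB1B (1.04 and -0.54) turned in the same direction. LOX3 (-1.48 and -0.03), MIRCH38 (-1.28 and -0.01) and NIA1, a nitrate reductase (0.17 and 1.45), were further towards mhz5 in ethylene.

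Some probe sets had signal in 1 of the mutants and almost none in the other. Taking at least 50 on both arrays of a mutant and less than 20 on both arrays of the other, limits set after values were seen, 20 probe sets had signal in mhz5 alone and 10 in mhz4 alone. This choice used the same 4 arrays as the comparison, so no test is given for them. PM19L above and LOC4351985 and LOC4349793 below meet these limits as well. YSL15, METK3 and TIFY11A also reached the filter of 50 through the mhz5 arrays alone, which the list counts that hold them do not take into account. Of the 20, 4 showed the same pattern in roots, and of the 10, 6 did. In WT shoots 5 of the 20 were at 50 or more in both gases and 9 were below 20 in both, whereas of the 10 none was at 50 or more in both and 9 were below 20 in both.

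LOC4331398 had 4.53 in air and 5.02 in ethylene in mhz5, against 186 and 213 in mhz4, and WT shoots read 5.24 and 4.88. LOC4342716 had 202 and 166 in mhz5, against 3.33 and 3.18 in mhz4, and WT shoots read 3.67 and 3.48. In each case 1 mutant had signal where the other and WT were near the bottom of the scale. LOC4350075 had 261 and 241 in mhz5, against 13.4 and 11.4 in mhz4, with 265 and 295 in WT, so here mhz4 was the one that differed from WT. The brightest of the 20 was a probe set unnamed here, with 776 and 784 in mhz5, against 4.57 and 4.47 in mhz4, and 570 and 755 in WT. The gene table gives no function for these LOC genes.

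The leading LOC genes on the higher side were LOC4351985 (563 and 1081 in mhz5, against 9.94 and 11.6 in mhz4), LOC4333209 (1384 and 2089, against 51.8 and 72.1) and LOC4349793 (214 and 343, against 5.77 and 10.4). Their differences were 5.39, 4.63 and 4.13. LOC4351985 and LOC4349793 reached the signal filter through the mhz5 arrays alone, so no test of their shoot difference is given. On the lower side stood LOC4328841 (-2.54, adjusted p = 0.0316), LOC9272124 (-1.87, adjusted p = 0.00316) and LOC4337484 (-1.69, adjusted p = 0.00213).

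Roots of the same mutants gave the nearest comparison in the series. The shoot difference minus the root difference was tested in 8 arrays, and 8 of 22465 probe sets passed (0.0356%), all with the larger difference in shoots. Roots alone gave 27 passing probe sets (0.120%). LOC4351985 had 511 in air and 1366 in ethylene in mhz5 roots, against 313 and 639 in mhz4 roots, a difference of 0.89 beside 5.39 in shoots (shoot minus root 4.50, adjusted p = 0.0370). LOC4333209 (1.12 in roots), LOC4349793 (0.77), LOC4324944 (0.93 in roots and 3.95 in shoots) and LOC4324179 (1.16 and 2.86) passed as well, with 3 probe sets unnamed here. Among those 3 is a probe set that reached the signal filter through the mhz5 shoots alone.

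None of the 19 iron genes passed this test, and NAS1, NAS2 and NAAT1 were the nearest to its threshold. NAS1 had 10398 and 12038 in mhz5 roots, against 7615 and 10135 in mhz4 roots, so all 4 root signals were above the mhz5 shoot signal in air. The root difference was 0.35 for NAS1, 0.33 for NAS2 and 0.71 for NAAT1, and the shoot minus root value of each had an adjusted p of 0.0525. That adjusted p was 0.258 for IRT1, 0.239 for YSL15 and, outside the list, 0.0821 for Nramp1. IRO3 (0.97 in roots, adjusted p = 0.0207), MTK1 (1.02, adjusted p = 0.0207) and ARD2 (0.90, adjusted p = 0.0475) were higher in mhz5 roots too. The median root difference of the 19 iron genes was 0.51. LOC4342716 (3.86 in roots) and LOC4331398 (-4.95) differed in roots as they did in shoots.

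**Figure D5:**
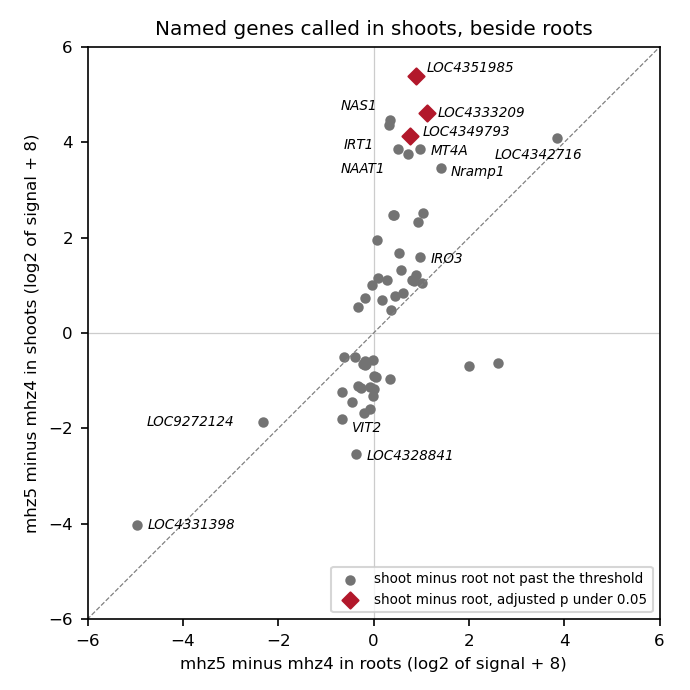
Each point is a named gene called in shoots, with its mhz5 minus mhz4 difference in roots on the x axis and in shoots on the y axis, both on the log2(signal + 8) scale. Red diamonds mark genes whose shoot and root differences differed (adjusted p under 0.05), NAS1, IRT1 and NAAT1 lie far above the dashed line of equality, and LOC4342716 and LOC4331398 lie near it.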

How the data were processed

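Transcript levels were measured on 14 one-colour Affymetrix rice arrays, of which 4 enter the main comparison. The authors deposited 1 linear intensity per probe set and array. MAS5 is named in the submitters' processing notes, without a version, and per the labels' protocols 6 µg of total RNA per array went into labelled cRNA. Depth is not defined for arrays, and their number limits the precision.

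The 123 control probe sets were left out, and 8 was added before log2. limma 3.58.1 in R 4.3.3 fitted genotype and gas (1 residual and 5.08 prior degrees of freedom, variance trend). The fit was tested on simulated data. Of 57258 probe sets 22436 had 1 gene, 95 several and 34727 none in the platform annotation. Of these 17905 genes 2457 had an informative name, with symbols from the gene table of assembly ASM3414082v1.

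The comparison, its members and the gene lists were chosen with earlier results of these data known. Named genes were the 12 highest and lowest by the smaller within-gas difference, all tested carotenoid, strigolactone and ABA synthesis genes, up to 4 per other list by adjusted p, up to 4 LOC genes per direction, and the 4 with the largest gap between gases in each direction. Alternatives covered pseudocount, filter, normalization, gas term, arrays in the fit, variance trend, fold limit, other probe sets and leaving out each array.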

Additional observations from a re-analysis of the deposited data

Results flagged for a closer look

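The difference between mhz5 and mhz4 departed in shoots from that in roots for 8 probe sets, by limma's test of the shoot minus root contrast with Benjamini-Hochberg adjustment. These were LOC4349793 (3.37, adjusted p = 0.0174), LOC4333209 (3.51), LOC4324944 (3.01), LOC4324179 (1.70), LOC4351985 (4.50) and 3 probe sets unnamed here (2.01, 2.43 and 2.47). The adjusted p of the others, apart from the last of the unnamed 3, was 0.0370. For the last of the unnamed 3 the signal was 236 in air and 217 in ethylene in mhz5 shoots, against 33.6 and 31.4 in mhz4 shoots, and between 13.3 and 20.4 in all 4 roots. It is counted in the 8 but reached the signal filter through the mhz5 shoots alone, so no test is given for it. At an unadjusted p under 0.05 there were 3663 probe sets.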

How the results depend on the processing

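The 406 passing probe sets became 699 with no filter on low signal, 31 with no gas term, 227 with 8 arrays in the fit and 99 with 6. With 14 arrays 334 passed, of which 232 were among the 406, and leaving out 1 array gave 82 to 677. Pseudocounts, a signal minimum of 100, both normalizations and other variance trends left 312 to 474. Centring moved the share called higher to 40.1%, from 49.3%, and the 14-array fit to 61.4%. The 144 probe sets at least 2-fold apart in both gases became 393 at 1.5-fold and 66 at 3-fold, and single gases gave 186 to 385. The 8 shoot minus root calls became 35 with 14 arrays, 13 with a pseudocount of 32, 44 with no filter and 1 with no trend; the cause was not tested. Of 55 named genes that passed, 33 passed with 14 arrays, 8 with no gas term and 13 without each array in turn. The reported fit pairs the genotypes by gas, and the 31 above is the count without that pairing. By replicate number, no paired analysis was possible because every group has the single number 1. The arrays carry no detection calls here, so signals near 5 are only low.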

Other observations

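Called genes that stand close together in the gene table, with at most 2 genes between them, were counted after values were seen. There were 14 such pairs among the 231 called genes, and 13 had the same direction. How often close genes pair or share a direction over all tested genes was not counted, so these numbers are description only. Beside NAS2 with NAS1, IRT2 with IRT1 and TIFY11A with TIFY11C, the pairs held LOC4350071 (3.15) with LOC4350075 (3.67), and a run of LOC4337482, LOC4337484, LOC4337486 and LOC4337488, lower by -0.58, -1.69, -1.28 and -1.36 in mhz5. Whether neighbours share transcripts on these probe sets was not tested.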
